A study of Triticum aestivum with 16 samples.

Results

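SB169 and SB69 are recombinant inbred lines of bread wheat (Triticum aestivum) from the cross of Seri M82 with Babax, and their stem tops were compared by microarray. The comparison used the 2 arrays titled SB169 and the 2 titled SB69, 4 of the 16 arrays of the series. The other 12 arrays, 2 each from the sister lines SB165, SB10, SB62, SB109, SB57 and SB3, gave the shared spread and the levels against which the pair was read. All 8 lines grew rain-fed in field plots without a further treatment, and each array held 7 to 8 main-tiller stem tops pooled from 1 plot at anthesis, about 2 days after heavy rain. The series was titled for genotypic differences in stem water-soluble carbohydrate. No label used here states the carbohydrate content of SB169 or SB69, so the lines are called by name only.

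A recombinant inbred line is bred by repeated selfing from a cross until most loci are fixed for the allele of either parent. Where the parents carry alleles of unlike expression, sister lines are therefore expected to fall on the level of one parent or the other, in a different assortment at each unlinked locus. The stem of wheat stores sucrose and fructan around flowering and later remobilises them to the grain. Bread wheat carries related gene copies in its subgenomes, and a probe set can read several of them. A probe set that differs between lines can thus reflect transcript abundance or a sequence difference under its probes, and the summarised values do not separate these.

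The arrays of the pair were alike within each line. Over 61140 probe sets, log2 levels of the 2 SB169 arrays correlated at 0.995 and those of the 2 SB69 arrays at 0.993. After each probe set was centred on its mean over all arrays, the correlations were 0.573 within SB169 and 0.439 within SB69. For each of these 4 arrays the closest of the 15 others was its own replicate, which held for 12 of the 16 arrays in all. It failed for SB165 on either array and for replicate 2 of SB10 and of SB3, and the centred correlation was -0.0772 within SB165 and 0.192 within SB3. Array medians lay between 23.6 and 25.0 intensity units, with 24.4 and 23.9 in SB169 and 25.0 and 24.8 in SB69. Photosynthesis genes, which green stem and leaf sheath both express, were bright in both lines. The photosystem II proteins PsbO (LOC543291) and PsbP (LOC543290) and the Rieske protein petC of the cytochrome complex had mean log2 levels between 13.2 and 13.3 in SB169 and in SB69 at their brighter probe sets. A dim second petC probe set stood at 2.59 in SB169 and 2.81 in SB69. None of these 5 probe sets was called between the lines in limma, none had an unadjusted p under 0.05, and their log2 differences ran from -0.22 to 0.06.

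SB169 and SB69 differed at 1119 of 61140 probe sets (1.83%), taken as the probe sets with a limma adjusted p under 0.05 in a fit of all 8 lines. Of these, 765 were higher in SB169 (1.25% of those tested) and 354 were lower (0.579%). The same contrast both chose and sized these probe sets, and the pair was picked with results of these data known, so the counts and sizes are a description. In stem tops taken whole, fewer cells of a type and less RNA per cell cannot be told apart. The median size of a difference was 2.01-fold, against a median absolute log2 difference of 0.15 over all tested probe sets. In all, 565 probe sets differed at least 2-fold (0.924% of those tested), 166 at least 4-fold and 23 at least 16-fold. The largest log2 difference was 7.38. The smallest absolute log2 difference called was 0.43. At the few probe sets with an adjusted p closest to the threshold, sizes ran from 0.74 to 0.88 inside it and from 0.49 to 0.73 outside it. A call depended on the spread of the probe set as well as on size. Among the 28 pairs of lines this pair ranked 5 by the number of differing probe sets, where the lowest number was 248, the median 521.5 and the highest 1837. The number fell to 494 without SB169 replicate 1, 403 without SB169 replicate 2, 574 without SB69 replicate 1 and 431 without SB69 replicate 2.

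Differing probe sets were more frequent at higher levels. By the mean level in the other 6 lines, 0.327% of the dimmest quintile of probe sets differed between SB169 and SB69, and 3.55% of the brightest quintile. Higher levels in SB169 made up 45.0% of the differing probe sets in the dimmest quintile and 74.1% in the second brightest. The 1119 belonged to 957 identifier clusters, in which related sequences share a number. In 130 clusters at least 2 probe sets differed. All members that differed were higher in SB169 in 91 of these clusters and lower in 37, and 2 clusters held both directions. That count covers called members only. Of the 420 clusters with a call and at least 2 probe sets tested, 355 also held a probe set that was not called. Probe sets of 1 cluster can read the same transcript, so they do not count as separate differences.

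The other field replicate gave the same direction at nearly all probe sets chosen from a single replicate. With SB169 and SB69 represented by field replicate 1 only, 184 probe sets were called (0.301% of those tested), and 180 of them (97.8%) had the same sign in replicate 2. With replicate 2 only, 298 were called (0.487%), and 294 (98.7%) had the same sign in replicate 1. Over all tested probe sets the sign was shared by 64.5%. The probe sets chosen from replicate 1 had a median absolute log2 difference of 2.07 there and a median of 2.27 in replicate 2, taken in the chosen direction. Those chosen from replicate 2 had 2.08 there and 1.67 in replicate 1. The held-back arrays took no part in choosing these probe sets, but the pair itself was picked with results of these data known. The 64.5% is not matched for size, since the median absolute log2 difference over all tested probe sets was 0.15.

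**Figure D1:**
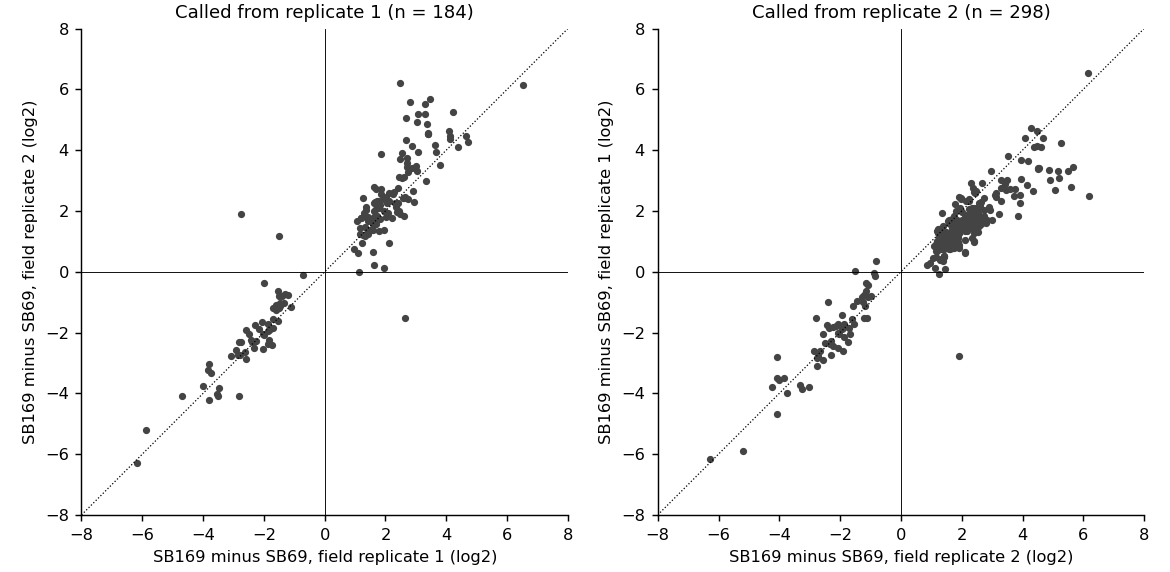
SB169 minus SB69 log2 differences at probe sets called from 1 field replicate (horizontal axis) and in the other replicate that the call did not use (vertical axis), with 184 probe sets called from replicate 1 on the left and 298 from replicate 2 on the right. The dotted line marks equal differences, and all but 4 points of each panel lie in the quadrants of equal sign.

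At most differing probe sets the other 6 lines were divided between SB169 and SB69. Each of the other 6 lines was placed on the gap between the pair, with 0 at the SB69 mean and 1 at the SB169 mean, and counted as nearer to SB169 above 0.5. All 6 lines lay nearer to SB69, so that SB169 departed, at 51 of the 1119 probe sets (4.56%). All 6 lay nearer to SB169, so that SB69 departed, at 61 (5.45%). At the other 1007 (90.0%) the 6 lines lay on both sides. The most frequent count was 3 lines on each side, at 335 probe sets (29.9%). Over all tested probe sets, where most gaps are within the replicate spread, SB169 departed at 5.24%, SB69 at 11.4%, and 18.2% had 3 lines on each side. The picture differs when the question is whether a line lay beyond all 6 others. SB169 alone lay outside the range of the 6 line means at 278 probe sets (24.8%), SB69 alone at 190 (17.0%), both at 381 (34.0%) and neither at 270 (24.1%). Over all tested probe sets these shares were 13.3%, 25.5%, 10.2% and 51.0%. Among the 166 differing at least 4-fold, they were 30.1%, 10.8%, 16.3% and 42.8%. The pair was chosen to be far apart at these probe sets, so the shares get no test.

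**Figure D2:**
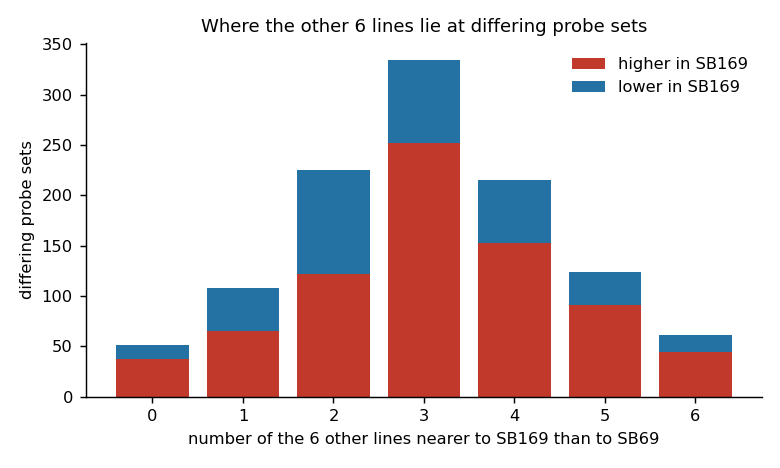
Number of differing probe sets (vertical axis) by how many of the 6 other lines lay nearer to SB169 than to SB69 (horizontal axis), split into probe sets higher and lower in SB169. The counts peak at 335 with 3 lines on each side and are 51 and 61 at the ends, where SB169 or SB69 stood alone.

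Larger gaps more often had no line in between. Among the 166 probe sets at least 4-fold apart, 126 (75.9%) had none of the 6 lines in the central part of the gap, between positions 0.33 and 0.67, and 122 of those 126 had lines on both sides. Among the 554 probe sets under 2-fold apart, 112 (20.2%) had none there. Positions are measured in units of the gap, so the same replicate spread covers more of a small gap than of a large one. These shares were not made over all tested probe sets, so they have no baseline and get no test. A departure with all 6 lines within the near outer part of the gap was found at 13 probe sets for SB169 and 21 for SB69. By limma calls against the mean of the other 6 lines, 266 of the 1119 (23.8%) were called in SB169 only, 195 (17.4%) in SB69 only, 119 (10.6%) in both and 539 (48.2%) in neither. Over all probe sets these contrasts called 0.918% for SB169 (0.545% higher and 0.373% lower than the 6) and 0.873% for SB69 (0.289% higher and 0.584% lower). At each of the 119 the lines lay on opposite sides of the mean.

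**Figure D3:**
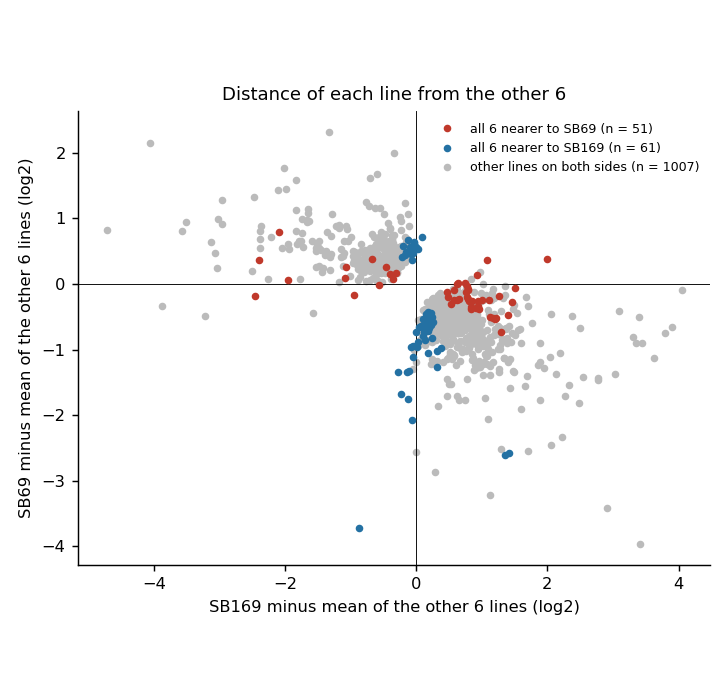
Log2 distance of SB169 (horizontal axis) and SB69 (vertical axis) from the mean of the other 6 lines at the 1119 differing probe sets. At the 51 probe sets where SB169 departed (red), SB169 lies farther than SB69 from the mean of the 6, which the definition of a departure fixes. By the same definition the reverse holds at the 61 where SB69 departed (blue). The 1007 with lines on both sides lie mostly in the quadrants of opposite sign.

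The other 6 lines also differed among themselves at many of these probe sets. A moderated F-test in limma on their 12 arrays, which used no array of SB169 or SB69, called 472 of the 1119 (42.2%) at an adjusted p under 0.05. The calls between the pair took most of their residual spread from these same 12 arrays, so the selections are not wholly separate. When the pair was fitted on its own 4 arrays, which share none with the F-test, 690 of 2797 differing probe sets (24.7%) passed it, against 1.23% of the rest. With the calls of the 16-array fit, the F-test called 2.30% of all tested probe sets and 1.55% of the 60021 not differing between the pair. The share was 23.1% under 2-fold, 50.1% from 2-fold to under 4-fold and 86.7% at 4-fold and above. It was 37.6% of the probe sets higher in SB169 and 52.0% of those lower. The contrast with the rest held in each quintile by level, from 15.0% against 0.32% in the dimmest to 37.8% against 2.98% in the brightest. With 3 lines on each side of the gap 212 of 335 probe sets passed the F-test (63.3%), while 2 of the 51 where SB169 departed and 1 of the 61 where SB69 departed did so. The sides were read from the same 12 arrays as the F-test. The share of all differing probe sets lay between 36.1% (without SB62 replicate 2) and 73.2% (without SB169 replicate 2) when 1 array was left out.

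The 6 lines did not divide evenly between SB169 and SB69. SB57 lay nearer to SB169 at 60.6% of the differing probe sets, SB3 at 60.1%, SB165 at 54.8%, SB109 at 53.4%, SB10 at 41.3% and SB62 at 34.5%. Shares per line were not made over all tested probe sets, so these have no baseline. Over all tested, all 6 lines lay nearer to SB169 at 11.4% and nearer to SB69 at 5.24%. The side depended on direction. Where SB169 was higher, SB3 was nearer to it at 71.0% and SB62 at 24.8%, and where SB169 was lower, SB3 was nearer at 36.4% and SB62 at 55.4%. SB10 was nearer at 49.2% of the higher and 24.3% of the lower probe sets. The 2 arrays of a line gave unlike shares in all 6 lines. Replicates 1 and 2 stood at 64.4% and 48.3% in SB165, 58.7% and 47.4% in SB109, and 54.4% and 65.5% in SB57. They stood at 40.3% and 31.5% in SB62, 63.1% and 55.5% in SB3, and 46.0% and 38.5% in SB10. SB165 and SB109 thus changed sides of 50% between arrays, and SB57 lay above SB3 in replicate 2 and below it in replicate 1. The lines shared the same differing probe sets, 292 of them in clusters with at least 2, so no test was made between the shares.

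**Figure D4:**
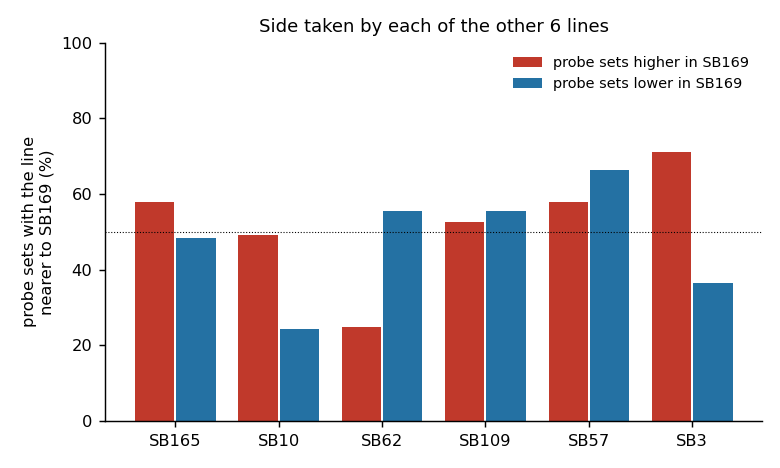
Percent of the differing probe sets at which each of the other 6 lines lay nearer to SB169, for the 765 probe sets higher in SB169 and the 354 lower. The dotted line marks 50%. SB3 takes the SB169 side at 71.0% of the higher probe sets and SB62 at 24.8%.

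Of 64 possible assortments of the 6 lines, 61 occurred. The most frequent joined SB165, SB10 and SB3 to SB169, at 125 probe sets (11.2%), of which 119 were higher in SB169 and 6 lower. In the reverse direction, SB62 and SB57 joined SB169 at 59 probe sets (5.27%), of which 53 were lower in SB169 and 6 higher. Both assortments were more prominent among the 166 probe sets at least 4-fold apart, at 33 (19.9%) and 21 (12.7%), with 32 higher and 20 lower in SB169. The second most frequent assortment left only SB62 with SB69, at 67 probe sets (5.99%), of which 49 were higher in SB169 and 18 lower. SB69 alone against all 7 others came next, at 61, and SB169 alone was found at 51. Apart from these lone departures, assortments were not counted over all tested probe sets, so their shares have no baseline. Probe sets of 1 cluster were counted separately. The side of SB165 differed between its arrays, with 64.4% nearer to SB169 by replicate 1 and 48.3% by replicate 2.

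Among probe sets with a gene in the platform annotation, 34 of 1273 differed (2.67%), against 1.83% of all tested. By identifier prefix, 2.57% of the Ta and 1.04% of the TaAffx probe sets differed, and the annotated share was not split in this way. Of the 34, 23 were higher in SB169 and 11 lower, in 32 genes. At 33 of the 34 the other lines lay on both sides, against 90.0% of all 1119 differing probe sets. The F-test among the other 6 lines called 14 of the 34 (41.2%), against 42.2% of the 1119. The 12 largest annotated rises in SB169 spanned log2 differences from 1.06 to 3.97, and the 11 falls spanned 0.60 to 3.44 in size. By line mean, SB169 was the highest and SB69 the lowest of all 8 lines at 7 of the 12 rises. At 1 of the 11 falls SB169 was the lowest and SB69 the highest. The F-test among the other lines called 5 of the 12 and 8 of the 11. Most annotated genes carry a locus symbol without a further name in the tables used, and no role is given for those here.

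A lipid transfer protein gene divided the lines into clearly separate levels. TaLTP3 (LOC543095, probe set Ta.1282.4.S1_at), of a family of small secreted proteins that bind lipids, had log2 levels of 6.15 and 5.32 in SB169, against 8.97 and 9.40 in SB69. The difference was -3.44 (SE 0.27), a 10.9-fold lower level in SB169. SB165, SB62 and SB57 shared the low level of SB169, with line means down to 5.56, while SB10, SB109 and SB3 shared the high level of SB69, up to 9.83. The 6 lines alone differed there (limma adjusted p = 1.63e-07). A brighter probe set of the same gene, Ta.1282.1.S1_x_at, stood at 12.46 in SB169 and 12.42 in SB69 and was not called. The result at this gene therefore holds for 1 of its 2 probe sets.

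The largest annotated rise divided the lines in another way. LOC543445 (Ta.24150.1.S1_at) had log2 levels of 8.63 and 8.96 in SB169, against 5.61 and 4.05 in SB69, a difference of 3.97 (SE 0.36). SB165, SB10 and SB3 were high with SB169, up to 9.64, and SB62, SB109 and SB57 were low, down to 3.48, below both SB69 arrays (limma F-test among the 6 lines, adjusted p = 3.69e-09). SB69 was uneven here, with replicate 1 above replicate 2. LOC780602 (Ta.28514.1.A1_at) had the same assortment, with 6.95 and 7.21 in SB169 and 5.48 and 5.12 in SB69 (limma F-test among the 6 lines, adjusted p = 6.75e-06). Another 4 probe sets of LOC780602 were not called, with differences between 0.05 and 0.46.

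LOC543111 was read by a pair of differing probe sets that share a target. At Ta.22794.1.S1_x_at the levels were 6.22 and 6.26 in SB169, against 8.56 and 8.57 in SB69, a difference of -2.32 (SE 0.13), and at Ta.22794.1.S1_at the difference was -2.28 (SE 0.16). SB62, SB109, SB57 and SB3 lay at the low level with SB169, and SB165 and SB10 at the high level with SB69. The F-test among the 6 lines gave limma adjusted p-values of 9.52e-07 and 2.43e-06. Another probe set of the gene, Ta.30622.1.S1_x_at, was brighter, at 10.54 in SB169 and 10.21 in SB69, and was not called.

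The alpha-tubulin gene TUBA, which encodes a subunit of microtubules, was lower in SB169 without a clean division. Its probe set Ta.723.1.S1_at had 7.41 and 7.32 in SB169, against 8.43 and 8.88 in SB69 (difference -1.29, SE 0.24). The other lines were graded from 7.29 in SB62 to 9.12 in SB10, and differed among themselves (limma adjusted p = 0.00825). The call was lost without SB169 replicate 1, SB169 replicate 2 or SB69 replicate 2. The brighter probe set Ta.812.1.S1_x_at was at 12.45 in SB169 and 12.82 in SB69 and was not called.

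Another 3 genes without a further name had the other lines on the same sides as at TUBA, though not in the same full order. LOC542781 (Ta.27725.1.S1_at) had 6.43 and 7.11 in SB169, against 8.12 and 8.52 in SB69, a difference of -1.55 (SE 0.27), and its call was lost without SB169 replicate 1 or SB69 replicate 2. LOC542806 (Ta.30472.1.S1_at) had 4.55 and 4.96 in SB169, against 6.13 and 6.15 in SB69. LOC100037585 (Ta.1839.1.S1_x_at) had 9.27 and 9.46 in SB169, against 10.06 and 10.45 in SB69. Another probe set of LOC542806 (-1.18) and 2 more of LOC100037585 (-0.87 and -0.53) were not called. At all 3, as at TUBA, SB62 and SB57 lay nearer to SB169, the other 4 lines nearer to SB69, and SB10 was the highest of the 8. The F-test among the 6 lines gave limma adjusted p-values of 0.00945, 0.0315 and 0.0229. The calls between SB169 and SB69 at LOC542806 and LOC100037585 were lost without any of the pair's 4 arrays, and also without either array of SB10, SB109 or SB57. The call at LOC100037585 was lost without either SB62 array too. Centring on array medians and a fit with no intensity trend each lost the calls at LOC542806 and LOC100037585.

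LOC543287 (Ta.82.1.S1_at) and LOC100037578 (TaAffx.16936.1.S1_at) had the next largest falls after TaLTP3. LOC543287 had 4.06 and 3.56 in SB169, against 5.62 and 6.69 in SB69, while the others spanned from 4.16 in SB3 to 8.03 in SB10 (limma F-test among the 6 lines, adjusted p = 0.00424). Its range among the other lines thus exceeded the difference of the pair, -2.34 (SE 0.48). LOC100037578 had 8.12 and 8.79 in SB169, against 10.71 and 11.14 in SB69, and SB169 was the lowest of all lines, with the others between 9.49 and 11.23 (limma F-test among the 6 lines, adjusted p = 0.380). The SB169 arrays lay below the SB69 arrays at both genes, but each call was lost without SB169 replicate 1 and without SB69 replicate 2, and also without SB169 replicate 2 at LOC543287 and without SB69 replicate 1 at LOC100037578.

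At a pathogen-response gene the pair formed the ends of a graded series. PR5 (LOC543292, Ta.24501.1.S1_at), of the thaumatin-like proteins that plants make under attack or stress, had 10.79 and 11.16 in SB169, against 9.34 and 9.13 in SB69, a difference of 1.74 (SE 0.30), or 3.35-fold. The means of the other 6 lines lay between 9.49 and 10.54, and they did not pass the F-test among themselves (limma adjusted p = 0.602). The 2 plots of SB10 stood at 10.54 and 9.23, the second of them between the SB69 arrays. LOC543422 (Ta.62.1.S1_x_at) had the same form, with 10.94 and 11.60 in SB169, against 9.23 and 8.78 in SB69, and 9.64 to 10.51 in the other lines (limma F-test among the 6 lines, adjusted p = 0.769). Another 2 probe sets of LOC543422 were higher in SB169 by 1.50 and 1.54 and were not called. The calls at PR5 and LOC543422 were lost without SB169 replicate 2 and without SB69 replicate 2.

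The remaining rises among the annotated genes were mostly of this graded kind. LOC542826 (Ta.18203.1.S1_at) had 7.54 and 7.92 in SB169, against 6.33 and 6.50 in SB69, and LOC778392 (Ta.351.2.S1_x_at) had 10.07 and 10.30 in SB169, against 9.10 and 8.81 in SB69. The pair formed the extremes of the 8 line means at both, with SB62 lowest and SB3 highest of the other 6. The arrays were less clear. Both SB62 arrays at Ta.351.2.S1_x_at, at 8.96 and 8.97, lay between the SB69 arrays. Both SB3 arrays at LOC542826, at 7.59 and 7.57, lay between the SB169 arrays. LOC778392 had another called probe set, Ta.351.1.S1_at, higher in SB169 by 0.83 with 1 other line nearer to SB169, and a dimmer one, Ta.351.3.S1_at, that differed by -0.34 and was not called. The F-test among those 6 gave limma adjusted p-values of 0.0443 at LOC542826 and 0.0400 at Ta.351.2.S1_x_at. LOC100037541 (Ta.30640.1.S1_at) had another order, with 10.06 and 9.67 in SB169, against 8.84 and 8.62 in SB69, and SB62 and SB57 at the level of SB169. Another probe set of LOC100037541, Ta.30640.1.A1_at, differed by 0.09 and was not called. The call at Ta.30640.1.S1_at was lost without any of the pair's 4 arrays, without either array of SB10 or SB62, with quantile normalization and with no intensity trend.

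**Figure D5:**
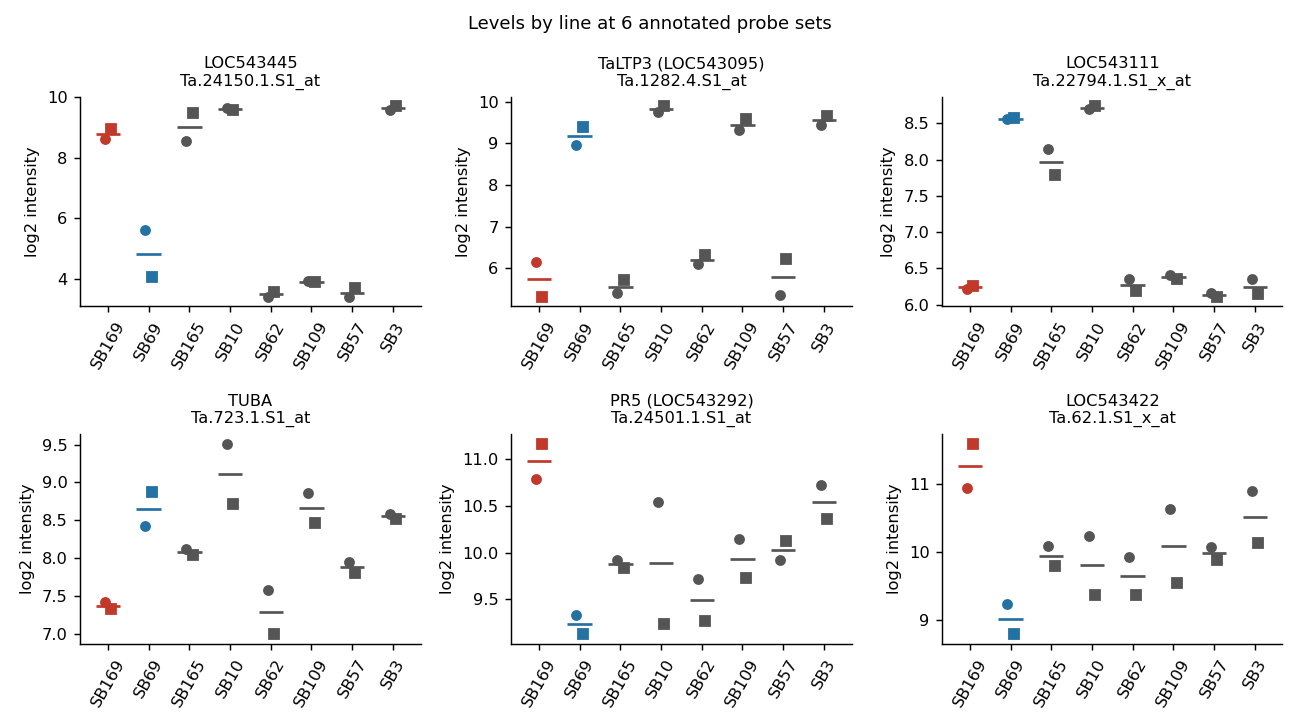
Log2 intensity (vertical axes) on each array of the 8 lines at 6 annotated probe sets, with SB169 in red, SB69 in blue and the other lines in grey. Circles mark field replicate 1, squares replicate 2 and bars the line mean. LOC543445, TaLTP3 and LOC543111 show 2 separate levels, while TUBA, PR5 and LOC543422 are graded.

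The largest lone departures of each line in each direction were less clean than these divided genes. They were picked by size, not by how closely the other 6 lines kept to 1 side of the gap. Where SB169 departed upward, the largest difference was at Ta.29826.1.S1_at, with 6.87 and 7.55 in SB169, 5.0 and 5.36 in SB69 and line means from 5.36 to 6.20 in the other 6. Where SB169 departed downward, Ta.26907.1.S1_at had 6.50 and 8.15 in SB169, 9.98 and 10.46 in SB69 and 8.98 to 10.51 in the others. The SB169 plots differed there by more than the range of the 6 line means. Where SB69 departed downward, Ta.21556.1.S1_x_at had 9.95 and 10.15 in SB169, 6.54 and 5.59 in SB69 and 8.07 to 9.18 in the others, so SB169 also lay above all 6. Where SB69 departed upward, TaAffx.123813.1.S1_at had 4.53 and 4.34 in SB169, 5.18 and 5.30 in SB69 and 4.39 to 4.79 in the others, a 1.75-fold difference. None of these 4 passed the F-test among the other lines (limma adjusted p from 0.475 to 0.583). The tables used do not pair these identifiers with genes. The call at Ta.26907.1.S1_at was lost without SB169 replicate 1 and without either SB69 array, and that at TaAffx.123813.1.S1_at without any of the 4 arrays of the pair.

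Carbohydrate genes with a name in the tables did not reach the threshold between SB169 and SB69. Of 4 fructan exohydrolase probe sets, enzymes that release fructose from stored fructan, 0 were called in limma and 2 had an unadjusted p under 0.05, where 1.83% and 13.6% of all probe sets did so. These 2 were Ta.30950.1.A1_x_at of 6-FEH and Ta.199.1.S1_at of 1-FEH. They went in opposite directions, with log2 differences of 0.89 and -0.28. 6-FEH (LOC780575) stood at 6.82 and 6.65 in SB169, against 5.63 and 6.06 in SB69 and 5.24 to 6.28 in the other lines, at Ta.30950.1.A1_x_at. At Ta.9641.1.A1_a_at it stood at 7.32 and 7.22 in SB169, against 6.17 and 6.86 in SB69 and 5.72 to 6.23 in the others. SB169 was thus the highest line at both, while the remaining 6-FEH probe set gave 6.24 and 5.98 in SB169 and 6.31 and 6.07 in SB69. 1-FEH (LOC543441) was at 10.78 and 10.59 in SB169, against 10.95 and 10.96 in SB69 and 10.79 to 11.26 in the others. LOC543415, which the gene table lists under the invertase name IVR1 among others, was dim in both lines, at 2.82 and 2.73 in SB169 and 3.01 and 2.98 in SB69.

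Sucrose synthase, which splits sucrose for use in cell walls and storage, was lower in SB169 at the middle and 3′ control probe sets without being called. The middle one had 9.53 and 9.71 in SB169, against 10.07 and 10.20 in SB69, and the 3′ one 10.69 and 10.89 in SB169, against 11.06 and 11.35 in SB69. SB169 had the lowest mean of the 8 lines at both. The 5′ probe set averaged 6.53 in SB169 and 6.55 in SB69. Of the 25 control probe sets named for wheat genes, 0 were called in limma and 5 had an unadjusted p under 0.05. Over all probe sets 13.6% had such a p. Besides the middle and 3′ sucrose synthase probe sets, the 5 included actin-3 (log2 difference -0.52), ef1a-5 (-0.45) and ef1a-M (0.40). Starch synthesis (AGP-S and GBSS, 2 probe sets), sugar phosphate metabolism (FBP, PFK, Pgk-1, PRK and GAPN, 6 probe sets) and cell wall genes (COMT1 and XTH, 2 probe sets) had 0 calls and 0 with an unadjusted p under 0.05 in limma. Their log2 differences ran from -0.29 to -0.03, from -0.22 to 0.23 and from -0.59 to -0.31, and a missed threshold does not show that the lines were alike.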

How the data were processed

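Per the submitters' processing notes, GCOS and RMA made the values, with no versions or order of steps. The deposited intensity values, 1 per probe set and array, lie on a linear scale. RMA normally gives log2 values, so a return to the linear scale was inferred and is not stated in the sources used here. RMA makes arrays alike in distribution and compresses differences of dim probe sets.

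Values were floored at 1 intensity unit (no value lay below it) and converted to log2. Of 61289 probe sets, 85 spike-in or hybridisation controls and 64 reporters were left out, and 61115 wheat and 25 named wheat control probe sets were tested together. Limma 3.58.1 in R 4.3.3 fitted 1 mean per line to the 16 arrays, with eBayes and an intensity trend (8 residual and 6.76 prior degrees of freedom) and Benjamini-Hochberg adjustment over all 61140. A separate fit of 12 arrays gave the F-test among the other 6 lines, and fits of 14 arrays gave the replicate check. The scripts were tested on simulated data. Figures used Python 3.11.15 with matplotlib 3.10.9.

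The platform annotation, which can be old, gave 1 gene symbol to each of 1273 probe sets (771 genes) and none to the others. The RefSeq gene table (IWGSC CS RefSeq v2.1) held 770 of these genes by gene ID and supplied the synonyms. The rule for named probe sets took the 12 largest annotated differences in each direction whose arrays did not overlap (11 were lower). It also took, by identifier, the largest rise and fall where SB169 or SB69 departed, since most probe sets have no gene. Members, lists and rules were chosen with earlier results of these data known. Replicates are separate plots per the labels, and their number limits the precision. Alternatives were other normalizations, floors, filters, variance models, thresholds, class rules, a replicate block and each array left out.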

Additional observations from a re-analysis of the deposited data

Results flagged for a closer look

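Outside the compared probe sets, 1 of the 64 reporter probe sets was bright on every array. Its log2 intensity was 13.76 and 13.98 in SB169 and 13.81 and 13.81 in SB69, and averaged 13.85 over the 16 arrays of the series. The second brightest reporter averaged 5.93.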

How the results depend on the processing

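Between SB169 and SB69, quantile normalization, the dim filter, no intensity trend, the removal of _a_at, _s_at and _x_at probe sets, and the replicate block kept the count within 1.5 times, as did centring, which gave 75% higher in SB169, against 68.4%. A floor of 16 units gave 619 (407 higher, 212 lower), of which 514 were among the 1119, and the cause was not tested. An adjusted p under 0.01 gave 510 (375 and 135, 73.5% higher), and at least 2-fold left 565 (403 and 162, 71.3%), where fewer pass by construction. Array weights gave 2135 (1321 and 814, 61.9%) and only the 4 arrays of the pair 2797 (1599 and 1198, 57.2%). The cause was not tested. These held 1119 and 1107 of the 1119.

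SB169 departed at 1.16% and SB69 at 1.88% with all 6 lines within the near outer part of the gap, and at 23.8% and 17.4% by calls against the mean of the other 6. The share for SB69 was 12.1% with the floor of 16, 8.95% with array weights, 2.75% at an adjusted p under 0.01 and 2.65% at 2-fold. Of probe sets called from replicate 2, 100% kept their sign in replicate 1 at an adjusted p under 0.01. The F-test among the other 6 lines called 30.4% with array weights, 55.5% at 0.01, 60.9% at 2-fold and 24.7% at calls from the 4 arrays of the pair alone, an alternative added after the data were seen. Control probe sets called were 2 with array weights and 1 with only the 4 arrays.

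Without SB165 and SB3, likewise added later, 1986 were called (865 lower, 56.4% higher), with SB169 departing at 7.50%, SB69 at 8.06% and the F-test among 4 lines at 50.3%.

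Leaving out 1 array gave 403 to 1367 calls, 275 to 850 higher, 104 to 517 lower, 62.2% to 78.9% higher, 2.44% to 8.70% for SB169 departing, 2.63% to 8.89% for SB69 departing, 36.1% to 73.2% for the F-test and 0 to 1 control probe sets. A line left with 1 array is assumed to vary like the others. The 4 lowest counts were those without an array of SB169 or SB69.

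With the replicate block, 1314 were called, 1108 of them among the 1119. The numbers were not taken to pair the plots: deviations of same-numbered arrays correlated at 0.0967 between SB169 and SB69, and over 0.1 in 14 of 28 pairs of lines. Of the 27 named probe sets, 10 kept their call in every alternative that tested them and 0 changed sign.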
